A study of Sus scrofa with 67 samples.

Results

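The translation initiation factor genes were described in pig longissimus dorsi, a back muscle, across all 7 groups of libraries. They were taken as every symbol in the table of read counts that begins with EIF and a digit, leaving out the eIF4E-binding proteins. Of 18158 symbols 45 met this rule: 4 genes of the eIF1 and eIF1A kind, 3 subunits of eIF2, 5 subunits of eIF2B, 4 eIF2 kinases, 2 alternative carriers of the initiator tRNA, 11 subunits of eIF3, 4 of the eIF4A helicases and eIF4B, 4 cap-binding proteins and their partner, 3 eIF4G scaffolds and 5 of the eIF5 family with EIF6. EIF3C, EIF3D, EIF4E and EIF4H were not analysed here.

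Initiation brings the small ribosomal subunit, the initiator tRNA and the messenger RNA together, and the roles given here are known mainly from yeast, human and mouse. The GTP-binding factor eIF2 delivers the initiator tRNA, eIF2B recharges eIF2 with GTP, and kinases that phosphorylate eIF2 slow this recharging under stress, for instance when amino acids are scarce. The large complex eIF3 holds the small subunit, while eIF4E, eIF4G and eIF4A bind the cap and unwind the messenger RNA. In skeletal muscle amino acid supply acts on these steps largely through phosphorylation of the proteins, which RNA counts do not measure.

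The pigs were Swiss Large White from 20 litters, 33 females and 34 castrated males by the design text, and every group came from this one breed and muscle. For the first 4 weeks after weaning STD pigs (n = 6) ate a standard diet. LP pigs (n = 6) ate one lower in protein, set at 81% of the standard diet for total crude protein and at 79% for the digestible part, with digestible amino acids kept at the required level in both diets. In weeks 5 to 8 the groups were STD-STD (n = 12), kept on the standard diet, and 3 groups that had all eaten the LP diet before. These were LP-STD (n = 12), moved to the standard diet, and LP-STD10 and LP-STD20 (n = 12 each), moved to that diet with 10% or 20% more digestible lysine and the other digestible essential amino acids above requirement. BL (n = 7) is a label with no explanation, so its age and diet are not known. Sex, litter and week of sampling are not given for single libraries.

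Library totals ran from 26680567 to 36935497 counts, of which the initiation factor genes took 0.509% to 0.838% (mean 0.627%). BL replicate 4, LP-STD10 replicate 10 and LP-STD20 replicate 9 stood apart, with correlations to the rest of their group across genes of 0.905, 0.949 and 0.962 against 0.974 to 0.989 in the other 64 libraries. Of 12 listed muscle fibre markers 7 were in the table, and none of these was at 0 in all 67 libraries. Their summed level was lowest at 126381 CPM (counts scaled to library size) in LP-STD10 replicate 10. The numbers of the second-period libraries run in blocks of 4 from one group, making 3 sets of 16 libraries that each hold all 4 groups. What a run stands for is not given. In a bulk sample, fewer cells of a type and less RNA per cell cannot be told apart.

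Levels are given as CPM with TMM factors over all libraries, and differences as log2 with their standard error from edgeR's quasi-likelihood test. A gene was called at a Benjamini-Hochberg adjusted p under 0.05 over all genes tested. Of the 45 genes 44 passed the filter on low counts. The other was EIF4E1B, a germ cell relative of the cap-binding protein in mouse, which had 0 to 2 counts and was at 0 in 65 libraries. A count of 0 allows up to 0.112 CPM in the shallowest library and 0.0812 CPM in the deepest.

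Across the 7 groups 25 of the 44 tested genes differed (56.8%, against a background of 44.8% of all genes). They were 9 of 11 eIF3 subunits, all 3 tested cap-binding genes, all 3 eIF4G scaffolds, 3 of 5 in the eIF5 family, 2 of 4 eIF4A and eIF4B genes, 2 of 4 eIF1 genes, and 1 each of the eIF2 subunits, kinases and tRNA carriers. None of the 5 eIF2B subunits was called in this edgeR test with all libraries. The lowest adjusted p-values were 8.62e-09 for EIF4G1, 1.03e-08 for EIF5A, 1.02e-07 for EIF4E3 and 3.4e-07 for EIF4G2. Among the called genes the ratio of the highest group mean to the lowest was 3.38 for EIF4E3, 1.95 for EIF2AK2, 1.83 for EIF2S2 and 1.53 for EIF4G2. The highest EIF4E3 mean, in BL, includes BL replicate 4 at 162 CPM, with the other BL libraries at 12.8 to 27.0. Without that library the EIF2AK2 call was lost (adjusted p = 0.263). At the other end were EIF1AX, EIF6, EIF2B1 and EIF2S3, with adjusted p-values of 0.817 or more. EIF1AX and EIF2S3 were not steady, with within-group coefficients of variation of 104% and 36.0%, and they split the libraries as described below. EIF6, which keeps the large ribosomal subunit from joining too early, had group means from 24.9 to 26.6 CPM, and EIF2B1 from 18.4 to 20.7. Further fits left out 1 library of BL, LP or STD in turn, or LP-STD10 replicate 10, or LP-STD20 replicate 9. EIF1B lost its call in 14 of these 21 fits, EIF3G and EIF5A2 in 5 each, EIF2A, EIF2AK2 and EIF4ENIF1 in 2 each and EIF4G3 in 1. The 2 losses of EIF4ENIF1 were those without LP-STD10 replicate 10 and without LP-STD20 replicate 9. Calls were also gained. Without BL replicate 4 the genes EIF1AD, EIF2B3, EIF2B5, EIF2S1, EIF3A and EIF4A2 passed, with adjusted p-values from 0.000741 (EIF3A, 0.0608 with it) to 0.047 (EIF2B3).

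**Figure D1:**
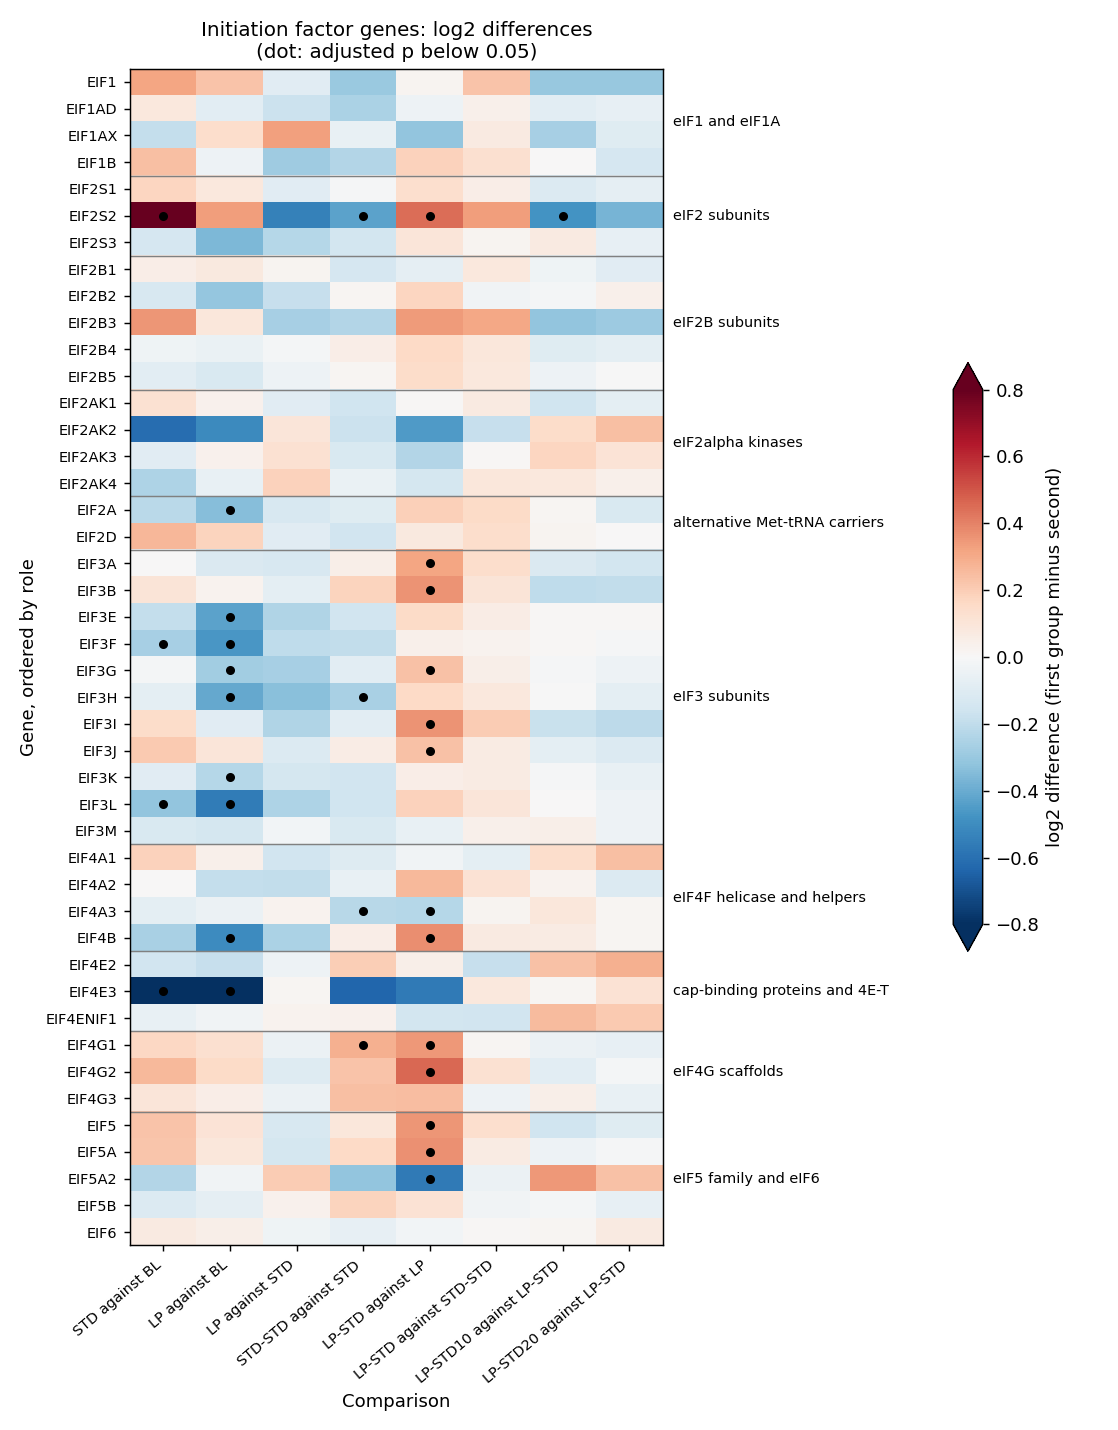
Log2 difference of the 44 tested initiation factor genes (rows, ordered by role) in 8 comparisons (columns), with colour from -0.8 to 0.8 and a dot where the adjusted p is under 0.05. Dots gather in LP-STD against LP (13 genes) and LP against BL (9 genes), and there is none in LP against STD or LP-STD against STD-STD.

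Of the genes for the initiator tRNA step, EIF2S2 differed most often between groups (chromosome 17, 37551182 to 37570269 in RefSeq on Sscrofa11.1). It encodes eIF2beta, the subunit that contacts eIF5 and eIF2B. Its level ran from 101 to 174 with a median of 118 CPM in BL, from 109 to 219.8 with a median of 175 in LP and from 166 to 300.5 with a median of 248 in STD. Of the 6 STD libraries 5 lay above every BL library. EIF2S2 was higher in STD than in BL by 0.87 ± 0.15 on the log2 scale (adjusted p = 7.78e-05), a call that none of 13 fits without 1 library lost. LP differed from BL by 0.34 ± 0.15 (adjusted p = 0.167) and from STD by -0.54 ± 0.18 (adjusted p = 0.357), so neither passed and the ranges overlapped.

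In the second period LP-STD had the highest median and mean of EIF2S2. Levels ran from 131 to 242 with a median of 172 CPM in STD-STD, from 152 to 293 with a median of 226 in LP-STD, from 125 to 187 with a median of 162 in LP-STD10 and from 139 to 249 with a median of 172 in LP-STD20. All 4 ranges overlapped. The difference of LP-STD10 from LP-STD was -0.48 ± 0.10 (edgeR, adjusted p = 0.00921), the 1 of 44 genes called there, against 0.407% of all genes. With counts summed over runs of 4 libraries the adjusted p was 0.247, and with runs treated as correlated it was 0.0957. Within the 3 sets the LP-STD mean was 256 ± 26.9, 195 ± 30.6 and 231 ± 38.1 CPM (mean ± SD, n = 4) against 166 ± 9.40, 169 ± 12.1 and 153 ± 20.5 in LP-STD10. LP-STD10 was lower in each set, and the adjusted p was 0.395 without the first set and 0.119 without the third.

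LP-STD20 differed from LP-STD in EIF2S2 by -0.37 ± 0.10 (edgeR, adjusted p = 0.0966), which did not pass; DESeq2 gave 0.0326 and limma voom with quality weights 0.0193. From STD-STD to LP-STD the difference was 0.34 ± 0.10 (adjusted p = 0.246). Across periods the direction depended on the earlier diet. STD-STD differed from STD by -0.43 ± 0.13 (adjusted p = 0.0185) and LP-STD from LP by 0.45 ± 0.14 (adjusted p = 0.0143), so the gene fell after the standard diet and rose after the LP diet. The test of the difference between these differences, the interaction, gave 0.87 ± 0.19 (edgeR, adjusted p = 0.0268), the 1 call among 44 genes against 0.163% of all genes. Leaving out single LP or STD libraries kept it between 0.78 and 0.97, but its adjusted p ran from 0.014 to 0.1, and the call was lost without LP replicates 1, 2 or 5 or STD replicates 2, 3 or 5. The fall in STD-STD was lost without STD replicates 2, 3 or 5 (adjusted p up to 0.0809) and the rise in LP-STD without LP replicates 2 or 5 (up to 0.0762). With correlated runs the adjusted p of the interaction was 0.0737.

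**Figure D2:**
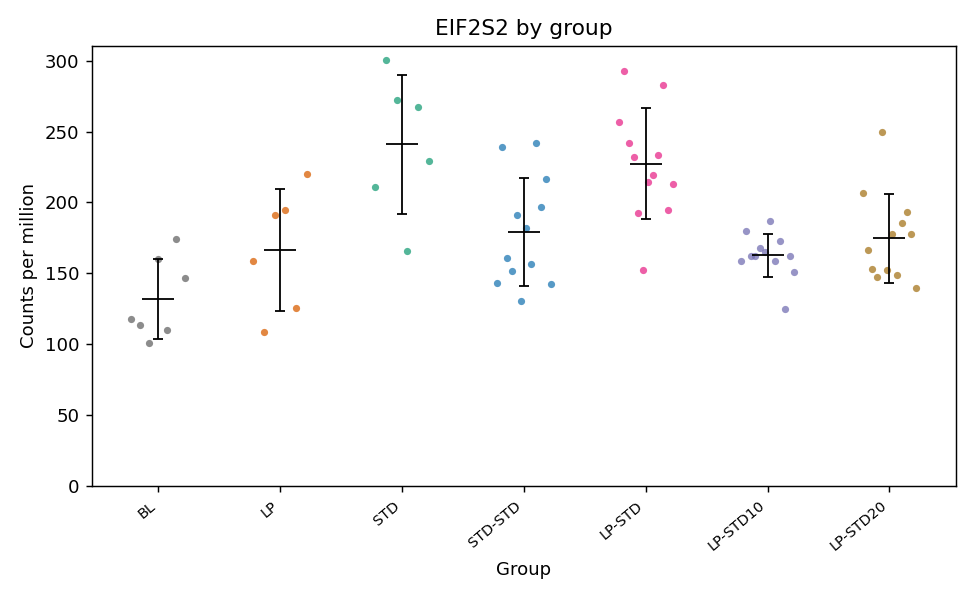
EIF2S2 in every library by group, in CPM, with a black mark at the mean and a line of 1 SD each way. STD and LP-STD have the highest means, 241 ± 48.9 and 227 ± 39.2 CPM, and BL the lowest, 132 ± 28.1.

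EIF2S1, which encodes the subunit that the kinases phosphorylate, was not called among the 7 groups (edgeR, adjusted p = 0.295), with group means from 26.1 to 30.4 CPM. That turned on BL replicate 4, without which the adjusted p was 0.0266. Without the 3 libraries that stand apart it was 0.011, and EIF2S1 in STD against BL was then 0.26 (adjusted p = 0.0463, 0.302 with them). None of the 5 eIF2B genes, which encode the exchange factor, was called in any comparison by edgeR with all libraries. The lowest adjusted p among them was 0.055, for EIF2B3 over the 7 groups, and EIF2B3 differed by 0.31 ± 0.11 in LP-STD against STD-STD (adjusted p = 0.348). Fits without some libraries did call 4 of the 5. Over the 7 groups EIF2B5 was called without BL replicate 4 (adjusted p = 0.0161, 0.483 with it), and EIF2B3 without any 1 of several libraries, lowest at 0.0236 without BL replicate 6. EIF2B2 was called lower in LP against BL without BL replicates 2, 3 or 6 (adjusted p from 0.0306 to 0.0489, 0.0837 with all). EIF2B4 and EIF2B5 were called higher in LP-STD against LP without the 3 libraries that stand apart (adjusted p = 0.0277 and 0.0304, 0.0985 and 0.199 with them). Of the kinases, EIF2AK2 (PKR, which senses double-stranded RNA) was called among the 7 groups at an adjusted p of 0.0141, and its within-group coefficient of variation was 39.6%. Its mean was highest in BL, at 19.9 CPM. The call was lost without BL replicate 4 (edgeR, adjusted p = 0.263) and without BL replicate 5 (adjusted p = 0.128). EIF2AK4 (GCN2, which senses uncharged tRNA) was not called among the 7 groups (adjusted p = 0.197), with 0.18 ± 0.11 in LP against STD (adjusted p = 0.669).

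Among the alternative carriers, EIF2A, which can deliver initiator tRNA without GTP in human cells, was lower in LP than in BL and fell by 0.34 ± 0.11 (adjusted p = 0.0463), a call lost in 6 of 13 fits without 1 library. It was also 1 of 2 genes that differed between runs of 4 libraries within second-period groups, the other being EIF4E2, a cap-binding protein that represses initiation; the background was 5.68% of all genes. EIF2A was 96.5 ± 3.70, 71.8 ± 3.59 and 80.5 ± 5.14 CPM in the 3 LP-STD runs (n = 4 each). EIF4E2 was 34.1 ± 5.24, 25.9 ± 3.05 and 35.4 ± 3.70 CPM in the 3 LP-STD20 runs, lowest in the second. The order of the runs differed between groups, since in LP-STD EIF4E2 was 25.3 ± 4.02, 29.0 ± 2.26 and 24.3 ± 0.836 CPM, highest in the second. Of the eIF1 genes, EIF1, which guards start codon choice, was called among the 7 groups (adjusted p = 0.00671), as was EIF1B. Those 2 are close copies, and how the authors treated reads that match both is not given.

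Of the eIF3 subunits 6 of 11 were lower in LP than in BL. There 9 of 11 lay below 0, 6 were called lower and none higher, against 4.02% of all genes lower and 2.44% higher. The median over the 11 was -0.23, where the median over all genes was -0.01. With limma voom 7 of 11 lay below 0, and over the 44 genes 19 did, against 26 by edgeR. EIF3L, a subunit that budding yeast lacks, ran from 142 to 284 with a median of 213 CPM in BL, from 128 to 147 with a median of 139 in LP and from 140.3 to 186 with a median of 161 in STD. In the second period its means were 147 ± 9.15 CPM in STD-STD, 157 ± 13.5 in LP-STD, 157 ± 19.9 in LP-STD10 and 152 ± 18.7 in LP-STD20. EIF3L fell in LP against BL by 0.56 ± 0.10 (adjusted p = 0.000129), and EIF3F fell by 0.47 ± 0.09 (adjusted p = 0.000416). In mouse muscle EIF3F links eIF3 to mTOR and S6 kinase, and its protein is degraded in atrophy. Its group means were 97.8 ± 18.1 CPM in BL, 70.8 ± 5.05 in LP, 81.4 ± 9.06 in STD, 71.0 ± 5.54 in STD-STD, 72.7 ± 6.39 in LP-STD, 73.1 ± 7.46 in LP-STD10 and 72.1 ± 7.52 in LP-STD20, so the mean was highest in BL. EIF3H, a further subunit that budding yeast lacks, fell by 0.41 ± 0.09 (adjusted p = 0.00211), and EIF3E, another, fell by 0.43 ± 0.10 (adjusted p = 0.00497). EIF3G, which helps scanning in yeast, fell by 0.28 ± 0.08 (adjusted p = 0.0164), and EIF3K was called too. All of these but EIF3K, lost in 4 of 13, kept the call in every fit without 1 library. Fitted with the compared groups alone, LP against BL called 0 of the 44 genes and 53 of all genes. The fibroadipogenic markers (all 6 in the table, none at 0 in every library) summed to 1515 to 10622 CPM in BL and 6409.6 to 11588 in LP. Their part in these differences was not tested.

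In STD against BL EIF3L fell by 0.32 ± 0.10 (adjusted p = 0.0318) and EIF3F fell by 0.26 ± 0.09 (adjusted p = 0.04999). Both calls were lost in 7 and 8 of 13 fits without 1 library. Of the 44 genes 4 were called in STD against BL, 1 higher against 2.62% of all genes and 3 lower against 4.08% (either direction 6.7%), and 9 in LP against BL, all lower, against 6.46%. Both comparisons share the BL libraries.

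LP against STD called none of the 44 genes (edgeR, 0% of all genes; 10 at an unadjusted p under 0.05). DESeq2 called 2, EIF3G and EIF3H, and limma voom none. The share of all genes that DESeq2 called is not given here, so its 2 calls are not set against other genes. Of the 44 differences 34 lay below 0, all 11 of eIF3 among them, with an eIF3 median of -0.20 against 0.00 over all genes, and the counts of directions were the same with RLE factors, DESeq2 and voom. EIF3H ran from 153 to 193 with a median of 181 CPM in LP and from 205 to 262 with a median of 220.0 in STD. Every LP library lay below every STD library, as was true of 0.914% of all genes tested. EIF3H means in the other groups were 238 ± 43.5 CPM in BL, 188 ± 14.9 in STD-STD, 199.6 ± 13.3 in LP-STD, 198 ± 26.1 in LP-STD10 and 188 ± 18.0 in LP-STD20. Its difference between LP and STD, -0.34 ± 0.08, did not pass (adjusted p = 0.23), and neither did EIF3G at -0.27 ± 0.07 (adjusted p = 0.27) or EIF3L at -0.24 ± 0.08 (adjusted p = 0.32). The fibroadipogenic sum was 6409.6 to 11588 CPM in LP and 5064 to 7774 in STD, and its part was not tested.

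**Figure D3:**
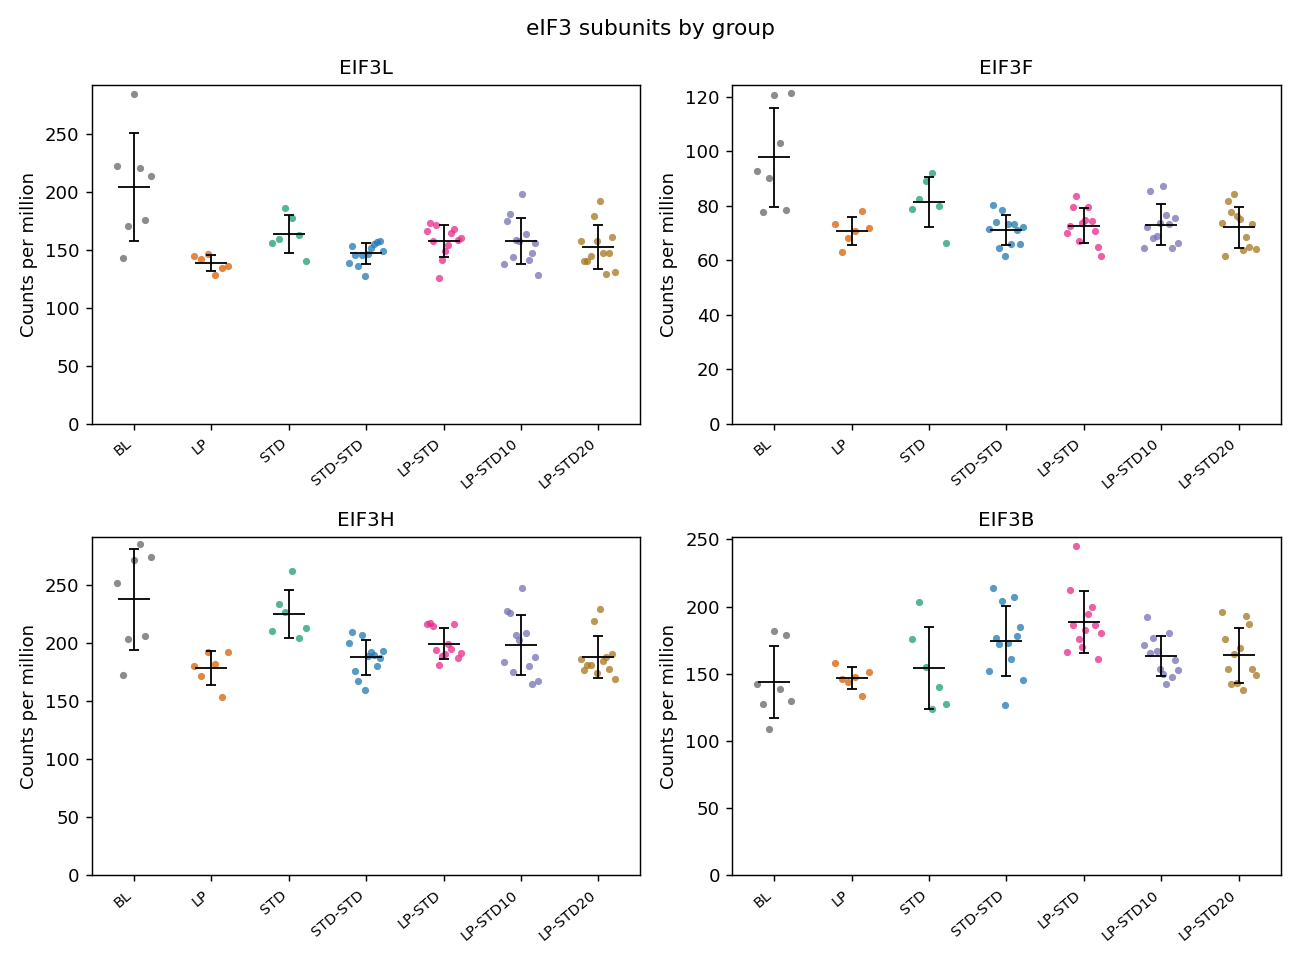
EIF3L, EIF3F, EIF3H and EIF3B in every library by group, in CPM, with a black mark at the mean and a line of 1 SD each way. In EIF3H the LP libraries do not overlap the STD libraries, and in EIF3B the LP-STD libraries do not overlap the LP libraries.

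Between the periods, in LP-STD against LP, 2 of 3 eIF4G scaffolds, EIF5A, EIF5 and 5 of 11 eIF3 subunits were called higher. In STD-STD against STD all 3 eIF4G differences lay above 0 too, from 0.23 to 0.28, with 1 called. Of the 11 eIF3 differences 3 lay above 0 there and 8 below. LP-STD against LP called 13 of 44 genes, 11 higher and 2 lower, against 8.78% of all genes higher and 9.04% lower (17.8% either way), and 5 of the higher ones were eIF3 subunits. EIF5A (chromosome 12, 52659040 to 52664686), which helps the ribosome past difficult peptide bonds, ran from 243 to 295 with a median of 276 CPM in LP and from 326 to 388 with a median of 347 in LP-STD. No LP library reached the lowest LP-STD library. EIF5A rose by 0.37 ± 0.07 (edgeR, adjusted p = 8.69e-05). In STD-STD against STD it differed by 0.16 (adjusted p = 0.0917, or 0.0482 without the 3 libraries that stand apart). Its group means elsewhere were 256 ± 42.2 CPM in BL, 299 ± 27.4 in STD, 335 ± 23.7 in STD-STD, 341 ± 25.8 in LP-STD10 and 347 ± 29.7 in LP-STD20.

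EIF4G1 (chromosome 13, 122203488 to 122225371), the scaffold that joins the cap-binding protein to the helicase, ran from 286 to 363 with a median of 321 CPM in LP and from 369 to 436 with a median of 411 in LP-STD, again without overlap. EIF4G1 rose by 0.35 ± 0.07 (adjusted p = 0.000287). It also rose from STD to STD-STD by 0.28 ± 0.07 (adjusted p = 0.00292), the 1 of 44 genes called higher there. Its group means were 295 ± 27.3 CPM in BL, 330.4 ± 34.6 in STD, 402 ± 43.1 in STD-STD, 394 ± 35.2 in LP-STD10 and 389 ± 39.2 in LP-STD20, lowest in BL. EIF4G2, a relative that lacks the site for eIF4E in human and mouse, had group means of 815 ± 146 CPM in BL, 908 ± 106 in LP, 974 ± 76.8 in STD, 1141 ± 76.4 in STD-STD, 1246 ± 129 in LP-STD, 1170.0 ± 142 in LP-STD10 and 1228 ± 265 in LP-STD20, lowest in BL. It rose by 0.46 ± 0.10 (adjusted p = 0.000823) in LP-STD against LP and differed by 0.23 ± 0.10 in STD-STD against STD (adjusted p = 0.111, or 0.0161 without the 3 libraries that stand apart). EIF4G1, EIF4G2, EIF5A and EIF3B did not overlap between LP and LP-STD, as was true of 3.65% of genes. EIF5, which triggers GTP hydrolysis on eIF2, had group means of 179 ± 11.8 CPM in BL, 193 ± 31.7 in LP, 209.9 ± 40.4 in STD, 223 ± 23.4 in STD-STD, 246 ± 14.3 in LP-STD, 219 ± 19.1 in LP-STD10 and 229 ± 36.9 in LP-STD20. EIF5 rose by 0.35 ± 0.09 (adjusted p = 0.00288) in LP-STD against LP. EIF3I rose by 0.36 ± 0.10 (adjusted p = 0.00571), and EIF3B, EIF3A, EIF3G and EIF3J were called too. EIF3B, a core subunit, had group means of 144 ± 27.0 CPM in BL, 147 ± 8.25 in LP, 154 ± 30.7 in STD, 175 ± 25.9 in STD-STD, 188 ± 23.0 in LP-STD, 163 ± 15.0 in LP-STD10 and 164 ± 20.4 in LP-STD20. Of the 13 calls, EIF3J was lost without 5 of the 6 LP libraries in turn, EIF4A3 and EIF5A2 without 3 each and EIF2S2 without 2. LP and LP-STD belong to different feeding periods, and age and diet cannot be told apart between these 2 groups alone. The interaction, which sets them against STD and STD-STD, called no eIF4G, eIF5 family or eIF3 gene by edgeR with all libraries. Its lowest adjusted p-values for these roles were 0.689, 0.542 (with EIF6) and 0.112. Fibroadipogenic markers summed to 6409.6 to 11588 CPM in LP and 3103 to 7098 in LP-STD, and their part was not tested.

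**Figure D4:**
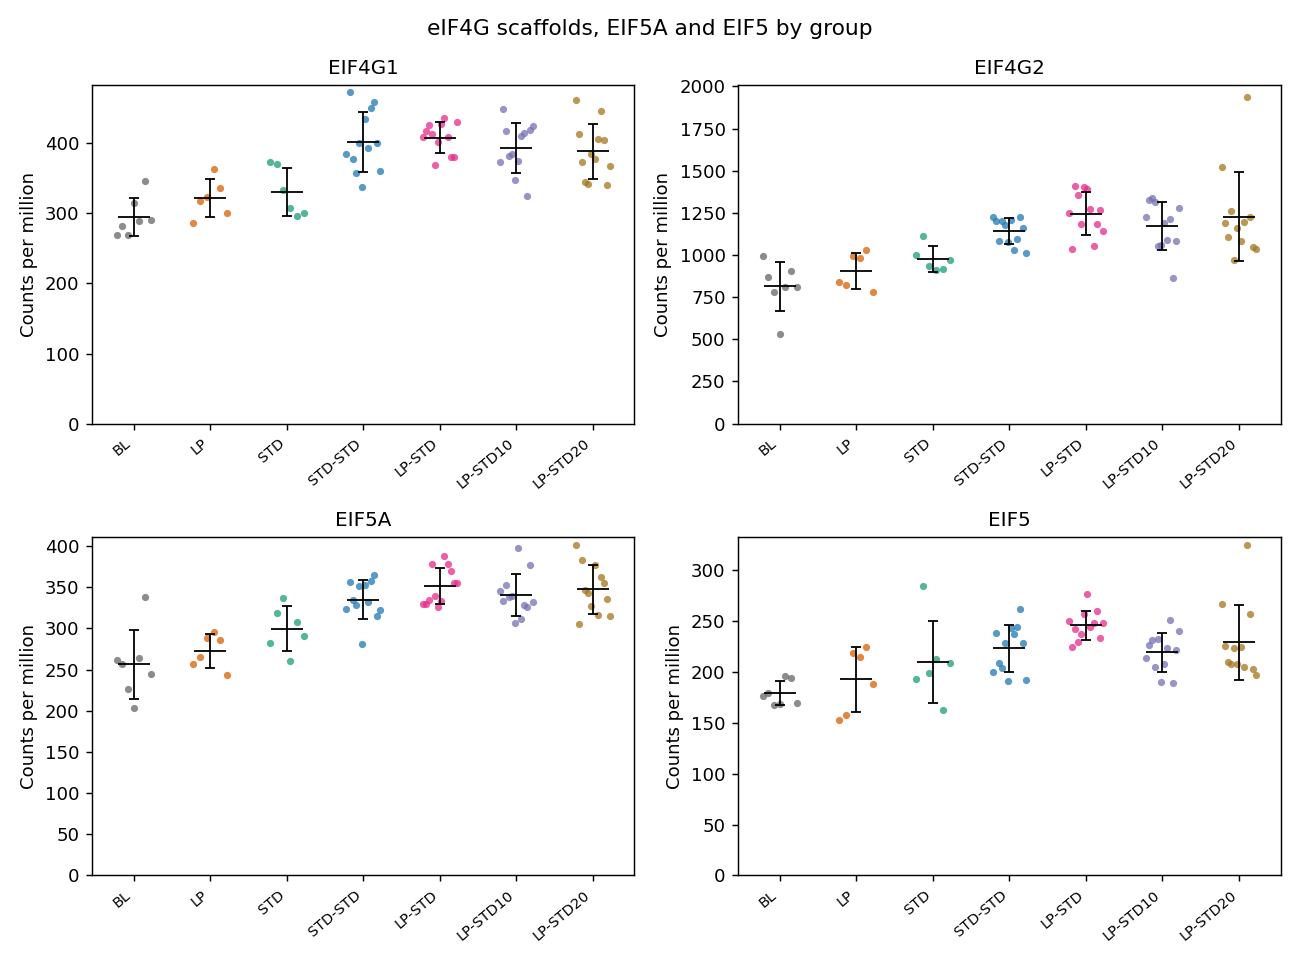
EIF4G1, EIF4G2, EIF5A and EIF5 in every library by group, in CPM, with a black mark at the mean and a line of 1 SD each way. In EIF4G1, EIF4G2 and EIF5A all 12 LP-STD libraries lie above all 6 LP libraries.

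STD-STD against STD called 4 of 44 genes, 1 higher and 3 lower, against 8.01% and 7.89% of all genes (15.9% either way). Besides EIF4G1 and EIF2S2 these were EIF3H at -0.26 ± 0.08 (adjusted p = 0.0153, lost without STD replicate 4) and EIF4A3, a helicase of the exon junction complex, at -0.22 ± 0.08 (adjusted p = 0.0399, lost in 4 of 6 fits without 1 STD library). The median over the 44 genes was -0.09 here and 0.14 in LP-STD against LP, where the same medians over all genes were -0.01 and -0.03. In the interaction all 11 eIF3 differences lay above 0, with a median of 0.27 (the same 11 signs with RLE factors, DESeq2 and voom), and none passed by edgeR with all libraries. Without the 3 libraries that stand apart EIF3H passed, at 0.43 (adjusted p = 0.0436, 0.112 with them), as did EIF1B, an eIF1 gene (adjusted p = 0.0442). The interaction is the difference of these 2 period comparisons.

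EIF4B, which helps the eIF4A helicase, had group means of 328 ± 70.0 CPM in BL, 231 ± 30.1 in LP, 274 ± 17.2 in STD, 284 ± 32.4 in STD-STD, 299 ± 31.8 in LP-STD, 313 ± 44.3 in LP-STD10 and 301 ± 41.8 in LP-STD20. In LP against BL EIF4B fell by 0.51 ± 0.11 (adjusted p = 0.00191) and in LP-STD against LP it rose by 0.37 ± 0.10 (adjusted p = 0.00426), and no fit without 1 library lost either call. The 2 comparisons share the LP libraries. RefSeq gives the pig EIF4B, EIF3B and EIF2B4 records as long noncoding RNA. EIF4A1 and EIF4A2, near-identical helicases whose shared reads could be split differently, were not called among the 7 groups (adjusted p = 0.589 and 0.148). EIF4A2 was called there without BL replicate 4 (adjusted p = 0.0243) and without the 3 libraries that stand apart (adjusted p = 0.00402). Without those 3 it was also higher in LP-STD than in LP, at 0.27 (adjusted p = 0.0087, 0.0538 with them). EIF4A3 fell in LP-STD against LP, at -0.23 ± 0.08 (adjusted p = 0.0308), as did EIF5A2, a close copy of EIF5A, at -0.57 ± 0.20 (adjusted p = 0.0382). EIF5A2 was low, with 19 to 183 counts and group means from 1.49 CPM in LP-STD to 2.25 in BL. How reads that match both EIF5A and EIF5A2 were treated is not given. EIF4A3 had group means of 26.3 ± 2.91 CPM in BL, 25.5 ± 3.00 in LP, 24.9 ± 2.97 in STD, 21.4 ± 1.90 in STD-STD, 21.8 ± 2.56 in LP-STD, 23.2 ± 2.18 in LP-STD10 and 21.9 ± 2.29 in LP-STD20.

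EIF4E3, an atypical cap-binding protein, was 162 CPM in BL replicate 4 and 12.8 to 27.0 in the other BL libraries. It was called lower in STD against BL at -1.12 ± 0.31 (adjusted p = 0.0192) and in LP against BL at -1.10 ± 0.31 (adjusted p = 0.0217). Without BL replicate 4 the differences were -0.03 (adjusted p = 0.95) and -0.02 (adjusted p = 0.974), so both calls rest on that library. Macrophage markers (all 8 in the table, none at 0 in every library) summed to 29.0 to 223 CPM in BL and 74.1 to 138 in LP. In BL replicate 4 the macrophage sum was the highest in BL, and the fibroadipogenic sum of 1515 CPM was the lowest in BL. Their part was not tested. In the other groups EIF4E3 ran from 12.3 to 23.6 (median 18.2) CPM in LP, 13.2 to 26.6 (median 14.2) in STD, 8.64 to 15.3 (median 11.3) in STD-STD, 10.5 to 18.3 (median 11.4) in LP-STD, 8.34 to 16.2 (median 12.1) in LP-STD10 and 9.61 to 19.4 (median 12.2) in LP-STD20. Without the 3 libraries that stand apart EIF4E3 differed by -0.63 in STD-STD against STD (adjusted p = 0.0018) and by -0.55 in LP-STD against LP (adjusted p = 0.0055), and with them by -0.64 (adjusted p = 0.101) and -0.57 (adjusted p = 0.147). Over all groups its within-group coefficient of variation was 57.8%, second to EIF1AX among the 44 genes.

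Among the second-period diets few genes were called. LP-STD against STD-STD called none of the 44 genes (0% of all genes; 9 at an unadjusted p under 0.05; none by DESeq2, voom or correlated runs), although 36 lay above 0, with a median of 0.07. After EIF2S2 and EIF2B3 the lowest p was that of EIF3I, 0.20 ± 0.08 (adjusted p = 0.364). LP-STD20 against LP-STD called none (0.046% of all genes; 9 unadjusted; DESeq2 called 1 and voom 2), with EIF4ENIF1, which carries eIF4E into the nucleus, at 0.21 ± 0.07 (adjusted p = 0.142) and EIF1 at -0.30 ± 0.10 (adjusted p = 0.159). LP-STD20 against LP-STD10 called none (0% of all genes; 3 unadjusted; DESeq2 and voom none), the lowest adjusted p being 0.859 for EIF1B at -0.14 ± 0.06. Against STD-STD neither lysine group gave a call. The background was 0.399% for LP-STD10 and 0% for LP-STD20, DESeq2 and voom called none, and the lowest adjusted p-values were 0.229 for EIF2A at 0.17 ± 0.07 in LP-STD10 and 0.578 for EIF2D at 0.14 ± 0.07 in LP-STD20. There were 5 and 0 of the 44 genes at an unadjusted p under 0.05. Over the 4 second-period groups together 1 gene, EIF2S2, was called (0.506% of all genes). With runs summed or correlated it was not. Shares of all genes called by DESeq2 or voom in these comparisons are not given here.

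EIF1AX and EIF2S3, both on chromosome X in RefSeq, split the libraries. The EIF1AX row held 803 to 1248 counts in 34 libraries and 0 to 6 in the other 33. Which locus this row counts cannot be settled from the counts, so its values may not be levels of the chromosome X gene. Counts over 8 genes that RefSeq places on chromosome Y ran from 4782 to 7504 in the first 34 and from 0 to 18 in the rest. EIF2S3, the subunit that binds GTP and the tRNA, ran from 27.7 to 47.4 CPM (median 34.8) in the first and from 51.9 to 119.7 (median 59.5) in the rest, without overlap within any of the 7 groups. Each group held libraries of both kinds. The numbers match the design text's 34 castrated males and 33 females in total, and no library was assigned a sex. The difference of EIF1AX in LP against STD, 0.33 ± 1.55, carries this split in its error.

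**Figure D5:**
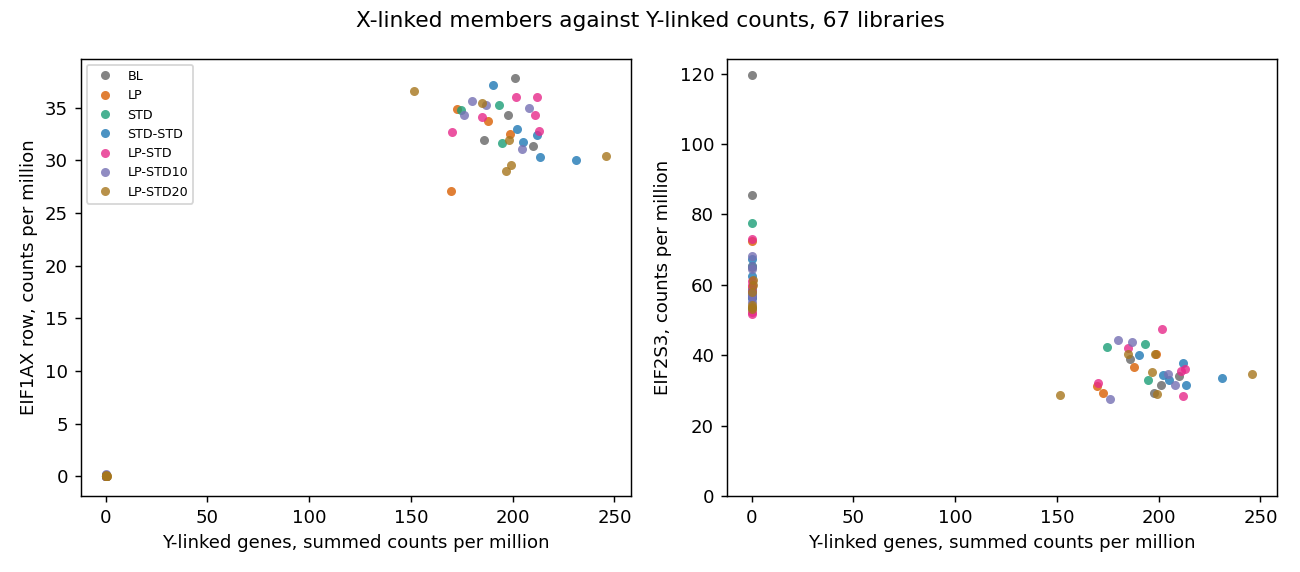
EIF1AX and EIF2S3 (CPM with TMM factors, linear axes) against the summed CPM of 8 chromosome Y genes, one point per library. The 34 libraries with EIF1AX counts of 803 or more hold the chromosome Y reads and have the lower EIF2S3 levels.

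The genes around initiation were counted in 8 lists. The response to phosphorylated eIF2 (16 genes) had 6 genes lower and none higher in STD-STD against STD (7.89% and 8.01% of all genes), among them the cell stress genes CHAC1 (-3.61 ± 0.81), SESN2 (-2.97 ± 0.66) and TRIB3 (-2.94 ± 0.69), and a median of -0.37. In STD against BL 5 of 16 were higher and none lower (2.62% and 4.08% of all genes). In LP against BL 3 of 16 were higher and none lower (2.44% and 4.02% of all genes), and both comparisons share the BL libraries. In LP-STD10 against LP-STD 2 of 16 were lower (0.407% of all genes were called there in either direction). These were the asparagine synthetase gene ASNS (-1.44 ± 0.28) and the transcription factor gene ATF5 (-2.35 ± 0.46). The RNA of EIF2AK4, a kinase upstream, differed by 0.08 ± 0.09 in that comparison (adjusted p = 0.729), and the activity of the kinase was not measured. In LP-STD against LP 3 of 16 were higher and 1 lower (8.78% and 9.04% of all genes). ATF4, the central factor of that response, rose by 0.68 ± 0.15, ATF3 by 3.24 ± 0.83 and GCN1, a partner of the kinase GCN2, by 0.25 ± 0.07, and TRIB3 fell by 2.48.

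Of the elongation and recycling genes, HBS1L, which frees stalled ribosomes, rose after either diet, by 0.65 ± 0.08 in STD-STD against STD and 0.60 ± 0.08 in LP-STD against LP, as did EEF2K, the kinase that slows elongation (0.80 ± 0.18 and 0.74 ± 0.18), and RPS6KB1, the S6 kinase (0.42 ± 0.08 and 0.46 ± 0.08). In STD-STD against STD, named first here, 8.01% of all genes were higher and 7.89% lower, and in LP-STD against LP, named second, 8.78% and 9.04%. A single called gene in a list of this size is near those shares. Of 10 tested elongation genes 1 was higher and 1 lower in the first comparison and 3 and 1 in the second, and of 6 termination and recycling genes 1 and 1, then 3 and 1. EEF2K was also called lower in LP-STD10 than in STD-STD, at -0.40 ± 0.10 (adjusted p = 0.0453). In LP against BL EEF2, the translocation factor, fell by 0.53 ± 0.10, and in LP-STD against LP it rose by 0.34 ± 0.09, and these 2 comparisons share LP. Of 17 mTORC1 genes 3 were higher and 2 lower in the first comparison and 3 and 0 in the second. Of 8 poly(A)-binding and scanning partners 2 were higher and none lower in the first comparison and 3 and 0 in the second, with DDX3X, a helicase that aids scanning, at 0.59 ± 0.16 in the second. Of 7 eIF4E-binding proteins and cap kinases 1 was higher and 1 lower in the first. The lower one was EIF4EBP1, which blocks eIF4E, at -1.28 ± 0.20 (adjusted p = 4.33e-06), and it was also -0.60 ± 0.14 in LP-STD10 against LP-STD (adjusted p = 0.0289). Of 9 mitochondrial translation factors 1 was lower in the first, TUFM, the mitochondrial elongation factor, at -0.41 ± 0.08. Of the 2 hypusine enzymes of eIF5A 1 was called among the 7 groups (edgeR, adjusted p = 0.0425), where 44.8% of all genes were. Neither was called in any other comparison by edgeR. In LP against STD, LP-STD against STD-STD, LP-STD20 against LP-STD and the interaction no list gene was called by edgeR.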

How the data were processed

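The authors deposited raw read counts for 18158 gene symbols in 67 libraries of total RNA. Per the labels' protocols a Qiagen RNeasy kit and standard Illumina steps were used. The submitters' processing notes name the build Sscrofa11.1 and, without a version, DESeq2. Aligner, counter, strand setting and the treatment of reads with several matches are not given in the sources of this work, so close copies (EIF1 and EIF1B, EIF4A1 and EIF4A2, EIF5A and EIF5A2) and overlapping or antisense genes are uncertain. Values of 2 (18638) outnumbered values of 1 (3454), for reasons the files do not give.

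Groups came from the titles. Counts were tested in R 4.3.3 with edgeR 4.0.16 (low counts removed by filterByExpr, TMM factors, and a quasi-likelihood F test with robust dispersions) and adjusted by Benjamini-Hochberg over 12584 genes (LP against STD, 12 libraries), 13032 (48 second-period libraries) or 13517 (all 67), with a threshold of 0.05. Where nothing else is named, adjusted p-values are from this edgeR test. Alternatives used RLE factors, DESeq2 1.42.0, limma 3.58.1 voom, other filters, blocks, sets of libraries and fits without single libraries. The covariate of chromosome Y counts, the fits without libraries that stand apart and the shares of genes with non-overlapping ranges were added after seeing the data. The test scripts were tested on simulated data.

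RefSeq's gene table (Sscrofa11.1) held all 45 symbols and gave coordinates. The genes and lists were chosen with earlier results of these data known. In each comparison up to 6 called genes with the lowest p, or the 3 lowest where none was called, were given in full. List genes and levels in all groups followed a like rule. Figures used Python 3.11.15, pandas 2.3.3, numpy 2.4.6 and matplotlib 3.10.9. The floor for a count of 0 is 3 counts per library and covers counting error only.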

Additional observations from a re-analysis of the deposited data

Results flagged for a closer look

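In groups of 4 to 10 libraries, 69 groups of 23 genes were examined for a library far from the others of its group by Dixon's ratio, and 7 were found. Chance alone gives about 1 in 20. In BL replicate 4, which agreed least with its group, EIF4E3 was 162 CPM (others 12.8 to 27.0), EIF2B5 was 55.2 CPM (others 27.2 to 33.1), EIF1B was 40.5 CPM (others 22.2 to 27.1) and EIF4A3 was 32.2 CPM (others 22.8 to 26.8). EIF1B was also 29.0 CPM in LP replicate 3 (others 25.3 to 26.1) and 43.0 CPM in STD replicate 2 (others 26.8 to 31.9). EIF1 was 943 CPM in STD replicate 4, below the other STD libraries at 1224 to 1326.

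The difference of EIF2S2 between the periods had opposite signs after the 2 first diets, with an interaction of 0.87 on the log2 scale (edgeR, adjusted p = 0.0268). The call was lost with correlated runs (adjusted p = 0.0737), with the replicate block (adjusted p = 0.0527) and in 6 of 12 fits without 1 LP or STD library.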

How the results depend on the processing

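Of the counts of called genes under other settings 222 stayed within 1.5 times the reported count and 45 did not. Of the log2 differences of single genes 531 kept direction and side of the threshold, 37 lost the call, 10 gained it and 1 reversed. The cause of these shifts was not tested. DESeq2 called 2 genes in LP against STD, 2 in LP-STD10 against LP-STD, 1 in LP-STD20 against LP-STD, 5 in the interaction and 6 between runs. Voom with quality weights called 2 in LP-STD20 against LP-STD, 9 in STD-STD against STD, 3 in the interaction and 7 in STD against BL. Counts summed over runs, and correlated runs, each called 0 in LP-STD10 against LP-STD and 0 over the 4 second-period groups, and correlated runs called 0 in the interaction. Without library set 1, and without set 3, both of those second-period counts were 0. Without set 2 they were 5 and 5, with 8 in LP-STD20 against LP-STD. Fits of the compared groups alone called 7 in STD-STD against STD, 3 in the interaction, 1 in STD against BL and 0 in LP against BL. Without the 3 libraries that stand apart 1 was called in LP-STD20 against LP-STD, 9 in STD-STD against STD and 3 in the interaction. Leaving out single libraries gave 2 to 6 in STD-STD against STD, 0 to 1 in the interaction and 1 to 5 in STD against BL. The share of all genes called in each of these fits is not given here. These counts therefore compare settings, and do not set the initiation factor genes against other genes. EIF2S2 in LP-STD20 against STD-STD was 0.045 without library set 3, against -0.04.

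With the replicate block 1 gene was called in LP-STD20 against LP-STD, 0 in the interaction (EIF2S2, adjusted p = 0.0527) and 1 in STD against BL. No pairing by replicate number was seen, as the median correlation of same-numbered libraries ran from -0.08 to 0.02. Medians near 0 cannot exclude that some samples were paired. In the second period single same-numbered pairs ran from -0.31 to 0.31, and pairs with different numbers from -0.39 to 0.36. The planned covariate of named Y-linked genes was not run, as those symbols were not found, and counts over 8 chromosome Y genes took its place.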
